A study of Mus musculus with 12 samples.

Results

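To follow the enzymes that hydroxylate collagen in B cells under low oxygen, the read counts of 6 genes were taken from a table of 46983 Ensembl genes of the mouse: P4ha1, P4ha2 and P4hb, which encode subunits of collagen prolyl 4-hydroxylase, and Plod1, Plod2 and Plod3, which encode the lysyl hydroxylases. The genes were chosen by symbol, and all 6 passed the filter on low counts, with 17506 genes tested in all. RNA had been sequenced from bone marrow B cells that were isolated with magnetic beads and kept in culture, in 4 groups of 3 libraries: HIF-1α KO cells in hypoxia, WT cells in hypoxia, HIF-1α KO cells in normoxia and WT cells in normoxia. No further agent was added to any group according to the labels. Per the study's methods, B-cell knockouts were made by crossing Hif1a f/f mice with Mb1-cre mice, in which Cre is driven from the Cd79a locus of the B lineage, and littermates that lacked Cre or carried Mb1 cre/+ served as controls. The labels say only WT and HIF1a KO, so it is not given whether the WT libraries carried Cre, and the age and the sex of the mice were not labelled. Whether replicate libraries stem from different mice is not labelled either. In WT, the Y-linked and Xist reads given below set library 3 apart from libraries 1 and 2, so these were not all from the same mouse. Each p-value still rests on library-to-library spread that may be technical in part or, for the KO groups, in full. Of the KO libraries only hypoxia library 1 carried Y-linked reads (46 CPM), and where they came from was not tested.

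Collagen chains are modified in the endoplasmic reticulum before they fold into a triple helix. Prolyl 4-hydroxylase, a tetramer of alpha and beta subunits, converts prolines of the repeats to 4-hydroxyproline, which stabilises the helix at body temperature. The lysyl hydroxylases act on lysines, and hydroxylysine carries the sugars and the cross-links of mature collagen. Both enzyme families belong to the 2-oxoglutarate-dependent oxygenases, which consume molecular oxygen and need iron and vitamin C. HIF-1, the heterodimer of HIF-1α and a constant partner, binds DNA at cores with the letters ACGTG or GCGTG, and P4HA1, P4HA2 and PLOD2 are known as HIF-1 targets in fibroblasts and tumour cells. B cells are not known as a main source of collagen.

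The promoters are shown because the KO libraries are labelled as lacking HIF-1α, the oxygen-regulated subunit of HIF-1. RefSeq held promoter windows for 5 of the 6 genes (P4ha1, P4ha2, P4hb, Plod1 and Plod3) on GRCm38.p6. The 250 bases upstream of the start are printed 5′ to 3′ on the gene's own strand for 4 genes, with ACGTG and GCGTG, or their reverse complements CACGT and CACGC, in capitals. The windows are chr10:59323046-59323295 on the plus strand for P4ha1, chr11:54100674-54100923 on the plus strand for P4ha2, chr11:120573254-120573503 on the minus strand for P4hb and chr4:147936777-147937026 on the minus strand for Plod1. The P4ha2 window precedes its RefSeq start but lies inside the span of the gene in GENCODE vM21 (54100095 to 54131665). The bases before that first GENCODE start of P4ha2 were not searched.
P4ha1: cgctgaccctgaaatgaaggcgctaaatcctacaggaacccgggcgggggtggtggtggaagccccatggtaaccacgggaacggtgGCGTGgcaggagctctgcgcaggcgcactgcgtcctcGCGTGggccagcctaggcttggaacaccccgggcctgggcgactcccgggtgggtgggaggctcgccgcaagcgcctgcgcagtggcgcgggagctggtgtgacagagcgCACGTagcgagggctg
P4ha2: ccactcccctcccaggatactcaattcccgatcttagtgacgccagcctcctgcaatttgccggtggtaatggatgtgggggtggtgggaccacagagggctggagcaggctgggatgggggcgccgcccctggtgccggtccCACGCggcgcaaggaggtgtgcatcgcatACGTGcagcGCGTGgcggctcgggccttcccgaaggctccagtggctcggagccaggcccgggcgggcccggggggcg
P4hb: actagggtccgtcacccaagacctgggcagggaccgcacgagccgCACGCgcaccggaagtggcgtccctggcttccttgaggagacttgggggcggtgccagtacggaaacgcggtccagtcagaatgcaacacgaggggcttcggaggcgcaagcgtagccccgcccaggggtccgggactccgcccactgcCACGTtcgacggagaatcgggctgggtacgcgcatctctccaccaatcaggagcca
Plod1: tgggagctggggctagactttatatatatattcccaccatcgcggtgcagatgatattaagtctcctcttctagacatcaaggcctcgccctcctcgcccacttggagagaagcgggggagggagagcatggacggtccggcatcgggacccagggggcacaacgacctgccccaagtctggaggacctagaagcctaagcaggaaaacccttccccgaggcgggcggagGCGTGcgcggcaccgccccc
Of Plod3, where 208 bases of the window are an exon of Znhit1 on the opposite strand, only the stretch around its ACGTG core is shown, chr5:136986953-136986982 on the plus strand.
Plod3: cttgaagtcattACGTGatgttcccttgga

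P4ha1 held 3 cores, of which 2 were GCGTG and 1 was ACGTG on the reverse strand. P4ha2 also held 3, with ACGTG and GCGTG lying 4 bases apart on the printed strand, and P4hb held 2. Plod1 held 1 core, a GCGTG, and Plod3 held 4 in its upstream window. Over 32851 RefSeq promoters of the same length, 38.6% held at least 1 such core on either strand, 16.6% held ACGTG, 6.58% held 3 or more cores and 2.58% held 4 or more. Promoters with at least 60% G and C, a class to which P4ha1 (69.6%), P4ha2 (70.0%), P4hb (66.8%) and Plod1 (61.6%) belong and Plod3 (55.6%) does not, held at least 1 core in 63.8% of cases and ACGTG in 23.0%. The share of that class with 3 or more cores was not computed, so the 6.58% is no matched background for P4ha1 and P4ha2. A match of letters is a description and not a binding site.

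Total counts ran from 27629175 to 36880082 per library, and no pair of libraries in a group agreed within sampling noise. Markers of B cells summed to 6810 to 10000 CPM (counts scaled to library size with TMM factors) in every library. Neutrophil markers summed to 1320 to 6980 CPM and monocyte and macrophage markers to 1470 to 3430 CPM. Single monocyte and macrophage markers moved in both directions between normoxia and hypoxia, which their sum does not show. Erythroid markers summed to 85.1 to 2750 CPM, with the highest sum in KO normoxia library 1. T and NK cell markers summed to 387 to 633 CPM, most of it from Il7r, Cd4 and Cd8a, and each other marker had at most 4.26 CPM. Plasma cell markers summed to 1090 to 1500 CPM, most of it from Irf4, Xbp1 and Mzb1. Of the others, Sdc1 had 73.9 to 117.1 CPM, and Jchain, Derl3, Prdm1 and Tnfrsf17 had at most 21.9 CPM each. Of 14 stromal and endothelial markers, whose cells make most collagen, 7 to 10 were below a mean of 1 CPM in each group, among them Lepr, Pdgfra, Dcn and Lum, and Runx2, Kdr and Cdh5 gave most of the sum of 169 to 370 CPM. Hif1a, counted over the whole gene, had 4442, 3942 and 3677 reads in KO hypoxia against 2495, 2395 and 3347 in WT hypoxia, and 4085, 3148 and 3186 in KO normoxia against 2351, 2804 and 3480 in WT normoxia. The gene was higher in KO hypoxia than in WT hypoxia (log2 0.46 ± 0.10 SE, adjusted p = 0.0132, edgeR), a call lost without WT hypoxia library 1 or 2 or KO hypoxia library 1, but gene-wide counts do not check the deletion of a floxed exon. Cd79a, the locus that carries Cre, was lower in KO cells by 0.93 ± 0.10 (log2, SE) in hypoxia, and passed the edgeR quasi-likelihood test (adjusted p = 0.000169). In normoxia the log2 value was -1.02, also called, though not in every alternative fit. The KO and WT libraries thus differed in Cd79a as well, and this difference and the loss of HIF-1α cannot be told apart here. Y-linked reads were found in 5 libraries (libraries 1 and 2 of both WT groups and, at a lower level, library 1 of KO hypoxia). Xist had 18 to 21 reads in libraries 1 and 2 of both WT groups and 42109 to 77454 in every other library, KO hypoxia library 1 included. KO against WT therefore also sets libraries with unlike sex marks against each other, and genotype and sex cannot be fully told apart. For this reason the results for the 6 genes are also given for the 7 libraries without Y-linked reads. Those hold 1 WT library per condition, whose spread is assumed to be that of the KO groups.

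P4hb was the most abundant of the 6 genes per length of exon in every group, and P4ha1 came next in both hypoxia groups. In CPM per kilobase of exon, P4hb averaged 83.5 ± 6.46 in KO hypoxia, 106.9 ± 4.11 in WT hypoxia, 70.0 ± 2.03 in KO normoxia and 80.3 ± 4.98 in WT normoxia (SD, n = 3 each). P4ha1 averaged 21.2 ± 3.49 in KO hypoxia, 60.1 ± 5.0 in WT hypoxia, 5.01 ± 0.242 in KO normoxia and 6.25 ± 0.416 in WT normoxia. Plod3 followed with group means of 5.69 to 9.64, and in both normoxia groups its level by merged exons lay within 1 CPM per kilobase of that of P4ha1. By the length of the longest transcript Plod3 was instead above P4ha1 there, at 7.84 ± 1.14 against 5.10 ± 0.246 CPM per kilobase in KO normoxia and 8.89 ± 0.0353 against 6.36 ± 0.424 in WT normoxia. Plod2 averaged 4.38 ± 1.35 in KO hypoxia and 6.90 ± 2.35 in WT hypoxia against 1.34 ± 0.330 in KO normoxia and 0.988 ± 0.231 in WT normoxia. Plod1 held means of 1.39 to 2.79 and P4ha2 means of 0.0103 to 0.686. By merged exons the order in WT normoxia was P4hb, then Plod3 and P4ha1, then Plod1, Plod2 and P4ha2. P4ha1 and Plod3 did not differ there beyond their spread on that scale, whereas in WT hypoxia P4ha1 stood between P4hb and Plod3 with no library overlapping either, and Plod2 stood above Plod1.

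**Figure D1:**
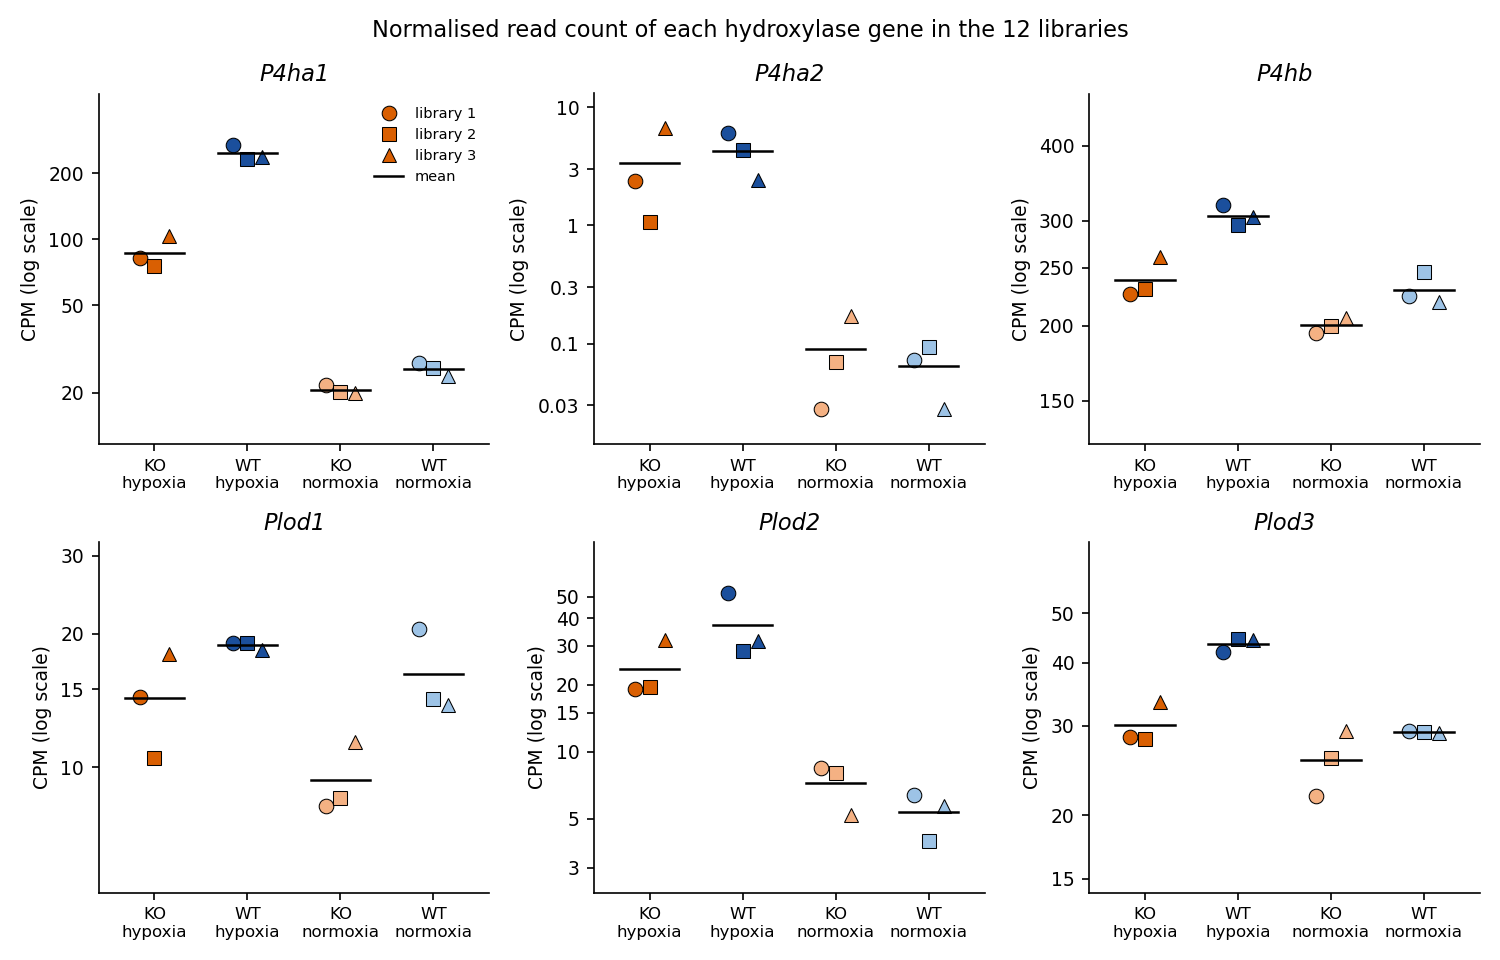
Normalised read count of each hydroxylase gene in the 12 libraries. Each point is 1 library (CPM after TMM scaling, log axis with its own range in every panel), grouped along the x axis as KO hypoxia, WT hypoxia, KO normoxia and WT normoxia, and each bar is the group mean; P4ha1 reached 270.8 CPM in WT hypoxia library 1, and all 6 genes had their highest KO hypoxia value in library 3.

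P4ha1 (ENSMUSG00000019916, mm10 chromosome 10, 59323296 to 59373304, plus strand) encodes the main catalytic alpha subunit. In KO cells it had 82.0, 75.9 and 103.3 CPM in hypoxia libraries 1 to 3, against 21.7, 20.2 and 19.9 CPM in normoxia. In WT cells it had 270.8, 232.6 and 238.6 CPM in hypoxia, against 27.2, 26.1 and 23.8 CPM in normoxia. Hypoxia libraries lay far above normoxia libraries in both genotypes, and every KO hypoxia library lay below every WT hypoxia library. P4ha1 rose 4.22-fold in KO (log2 2.08 ± 0.11 SE, adjusted p = 7.85e-08, edgeR) and 9.63-fold in WT (3.27 ± 0.12, adjusted p = 2.59e-09). In WT it ranked 45 of 17506 genes by fitted log2 fold change.

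P4ha2 (ENSMUSG00000018906, chromosome 11, 54100095 to 54131665, plus strand) encodes the second catalytic alpha subunit, and its transcript was close to absent in normoxia. It had 78, 33 and 203 reads in KO hypoxia libraries 1 to 3, against 1, 2 and 5 reads in KO normoxia. WT cells had 180, 124 and 73 reads in hypoxia, against 2, 3 and 1 read in normoxia. Neither pair overlapped, while the KO hypoxia libraries spanned the range of the WT hypoxia libraries, with KO hypoxia library 3 the highest of all 12. Over summed reads and scaled for library size, the level in hypoxia was 38.9 times that of normoxia in KO (314 against 8 reads, exact 95% counting interval 19.5 to 90.9) and 68.1 times in WT (377 against 6 reads, 31.0 to 187). These intervals cover counting error only. The fitted changes were 5.22 ± 0.81 (adjusted p = 0.000491, edgeR) in KO and 6.0 ± 0.84 (adjusted p = 0.000259) in WT, and they lean on the prior count because of the few normoxia reads. Library 3 held 203 of the 314 KO hypoxia reads and 5 of the 8 KO normoxia reads, and the fitted KO change ran from 4.28 to 6.07 as each library was left out in turn. The third alpha subunit gene, P4ha3, had 9 to 16 reads in KO hypoxia, 6 to 14 in WT hypoxia, 1 to 8 in KO normoxia and 4 to 9 in WT normoxia, and passed the test in no comparison. Its KO hypoxia libraries lay above those of KO normoxia, as held for 24.1% of all genes, at 2.97 times the level (36 against 12 reads, 1.51 to 6.28). The fitted KO change of P4ha3 was 1.58 ± 0.65 (unadjusted p = 0.0295, adjusted p = 0.082, edgeR). In WT its groups overlapped, at 1.63 times (27 against 18 reads, 0.863 to 3.13).

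P4hb (ENSMUSG00000025130, chromosome 11, 120560298 to 120573253, minus strand) encodes the beta subunit, which is protein disulfide isomerase and holds the alpha subunit in the endoplasmic reticulum. P4hb had 226.5, 230.2 and 260.2 CPM in KO hypoxia, against 194.9, 199.7 and 206.5 CPM in KO normoxia. WT cells gave 318.2, 294.9 and 304.2 CPM in hypoxia, against 224.0, 246.0 and 219.4 CPM in normoxia. The groups did not overlap in either genotype, but the shifts were small beside those of the alpha subunits. P4hb rose 1.19-fold in KO (log2 0.25 ± 0.07, adjusted p = 0.0195, edgeR) and 1.33-fold in WT (0.41 ± 0.07, adjusted p = 0.00107). The KO call was lost without KO normoxia library 1 (0.25) and without KO hypoxia library 3 (0.21).

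Because the alpha subunits moved and the beta subunit hardly did, their ratio within a library differed several-fold between conditions. Summed alpha subunit transcripts, in CPM per kilobase, came to 26.0 ± 2.79 per 100 of P4hb in KO hypoxia against 7.24 ± 0.564 in KO normoxia (SD, n = 3 each). In WT cells the ratio was 56.9 ± 2.85 in hypoxia against 7.88 ± 0.573 in normoxia. The 3 libraries of each hypoxia group lay apart from those of normoxia, and KO hypoxia, at 23.4 to 28.9, lay apart from WT hypoxia, at 55.0 to 60.2. An exact two-sided permutation test of 3 libraries against 3 cannot go below p = 0.1, which is the value reached in those 3 comparisons (0.16 after Benjamini-Hochberg adjustment over 24 comparisons of ratios, shares and sums). P4ha1 made up 94.9 to 98.5% of the alpha subunit transcripts by the length of the longest transcript, and 97.2 to 99.0% by merged exons, as group means. In all groups the beta subunit transcript was in excess over the alpha subunits.

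Plod1 (ENSMUSG00000019055, chromosome 4, 147909753 to 147936767, minus strand) encodes lysyl hydroxylase 1, which acts on lysines of the helical part of collagen. Plod1 had 14.4, 10.5 and 18.1 CPM in KO hypoxia, against 8.18, 8.54 and 11.4 CPM in KO normoxia. It had 19.1, 19.1 and 18.4 CPM in WT hypoxia, against 20.5, 14.2 and 13.9 CPM in WT normoxia. Hypoxia and normoxia overlapped in both genotypes, and every KO library lay below every WT library of the same condition. The difference in WT was 0.22 ± 0.20 (95% interval -0.209 to 0.649, adjusted p = 0.446, edgeR). Plod1 passed the test in KO at 0.61 ± 0.20 (adjusted p = 0.0361), but without KO normoxia library 1 or 2, or KO hypoxia library 1 or 3, it no longer did, with changes of 0.44 to 0.62, and in the libraries without Y-linked reads it was 0.60 with an adjusted p of 0.147.

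Plod2 (ENSMUSG00000032374, chromosome 9, 92542223 to 92608428, plus strand) encodes lysyl hydroxylase 2, which acts on the telopeptide lysines that form pyridinoline cross-links. Plod2 had 19.2, 19.6 and 32 CPM in KO hypoxia, against 8.49, 7.98 and 5.18 CPM in KO normoxia. WT hypoxia libraries had 51.7, 28.3 and 31.6 CPM, against 6.37, 3.95 and 5.67 CPM in WT normoxia. Hypoxia stood above normoxia without overlap in both genotypes, with KO hypoxia library 3 and WT hypoxia library 1 well above the others of their group. Plod2 rose 3.26-fold in KO (log2 1.71 ± 0.30, adjusted p = 0.00125, edgeR) and 6.99-fold in WT (2.81 ± 0.31, adjusted p = 5.6e-05).

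Plod3 (ENSMUSG00000004846, chromosome 5, 136987019 to 136996648, plus strand) encodes lysyl hydroxylase 3, which can also add sugars to hydroxylysine. In KO cells it had 28.6, 28.3 and 33.5 CPM in hypoxia, against 21.9, 26.0 and 29.4 CPM in normoxia. In WT cells it had 41.9, 44.5 and 44.3 CPM in hypoxia, against 29.3, 29.2 and 29.1 CPM in normoxia. WT hypoxia lay above all other libraries, whereas the KO groups overlapped. Plod3 rose 1.49-fold in WT (log2 0.58 ± 0.11, adjusted p = 0.00122, edgeR), and the difference in KO was 0.23 ± 0.11 (95% interval -0.001 to 0.456, adjusted p = 0.123). With the replicate number as a block the KO value, again 0.23, passed the test (adjusted p = 0.043), and so did that without KO normoxia library 3 (0.35). Znhit1 on the opposite strand shares 529 bases with the exons of Plod3 (11.7%), and it had 6712 reads over all 12 libraries. Gm38391, opposite to Plod2, shares 346 bases (6.42%) and had 286 reads. Reads in the shared bases cannot be assigned, because no source used here states whether counting was by strand.

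In KO cells, 5 of the 6 genes were called higher in hypoxia, against 14.5% of all genes tested, and their median log2 change was 1.16 against 0.04 over all genes. In WT 5 of 6 were called higher as well, against 11.4% of all genes, with a median of 1.69 against 0.01. The genes without a call were Plod3 in KO and Plod1 in WT. The libraries of hypoxia lay above those of normoxia without overlap for P4ha1, P4ha2, P4hb and Plod2 in KO (24.1% of all genes) and for 5 of 6 genes in WT (19.5% of all genes). In the libraries without Y-linked reads, P4ha1 (3.31) and Plod2 (2.47) kept their call in WT, and P4ha2 (6.24), P4hb (0.46) and Plod3 (0.60) had the same direction without a call. In these bulk libraries a change in the share of cells that express a gene and a change in RNA per cell cannot be told apart.

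**Figure D2:**
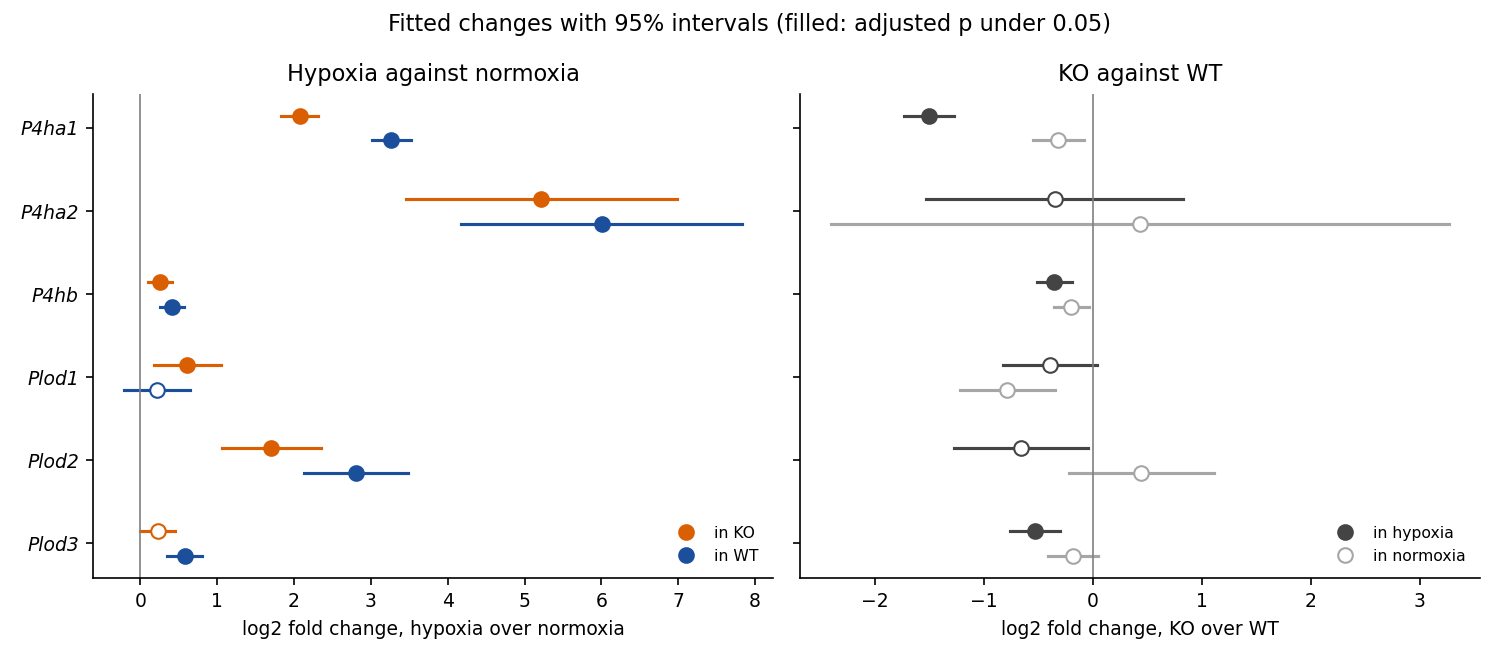
Fitted log2 fold changes of the 6 genes with 95% intervals from the edgeR fit; filled points passed an adjusted p of 0.05. The left panel gives hypoxia over normoxia in KO and in WT, where P4ha1 was at 2.08 in KO and 3.27 in WT, and the right panel gives KO over WT in hypoxia and in normoxia, where P4ha1, P4hb and Plod3 were called lower in hypoxia and none was called in normoxia.

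Levels within hypoxia were compared between KO and WT, a contrast that also holds the differences in Cd79a and in sex marks given above. P4ha1 was lower in KO hypoxia at 0.352 times the WT level (-1.51 ± 0.11, adjusted p = 1.05e-05, edgeR). P4hb was lower by a smaller step (-0.36 ± 0.07, adjusted p = 0.0102), as was Plod3 (-0.53 ± 0.11, adjusted p = 0.00826). For Plod2 the difference was -0.66 ± 0.28 (95% interval -1.273 to -0.041, adjusted p = 0.169), with library 3 of KO hypoxia inside the WT range. Plod1 gave -0.40 ± 0.20 (adjusted p = 0.237) and P4ha2 -0.35 ± 0.54 (95% interval -1.533 to 0.83, adjusted p = 0.738). Thus 3 of 6 genes were called lower in KO hypoxia, against 5.12% of all genes, and the median over the 6 was -0.46 against -0.03 over all genes. The KO and WT libraries did not overlap for P4ha1, P4hb, Plod1 and Plod3, as was the case, with KO lower, for 16.3% of all genes.

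The P4ha1 call held when each library was left out in turn (-1.62 to -1.39) and in the libraries without Y-linked reads (-1.41, adjusted p = 0.0495). Those of P4hb and Plod3 were lost in the libraries without Y-linked reads (-0.31 and -0.52) and with the levels of monocyte and neutrophil markers as covariates (-0.29 and -0.37). P4hb was also not called without WT hypoxia library 1, KO hypoxia library 1 or KO hypoxia library 2 (-0.30 each), nor Plod3 without KO hypoxia library 1 (-0.48). The sign of P4ha2 was not fixed: it was 0.01 without WT hypoxia library 1, 0.10 without KO hypoxia library 2, 0.68 in the libraries without Y-linked reads and 0.73 with the marker covariates. Neutrophil markers summed to 3060 to 4430 CPM in KO hypoxia against 3870 to 6980 CPM in WT hypoxia, and monocyte markers to 1470 to 2340 CPM against 2360 to 3160 CPM.

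In normoxia, KO against WT gave no call among the 6 genes, beside 0.0228% of all genes called either way. At an unadjusted p under 0.05, 3 of the 6 were lower in KO normoxia (P4ha1 by -0.32 ± 0.11, P4hb by -0.20 ± 0.07 and Plod1 by -0.79 ± 0.20), as were 6.6% of all genes tested, and DESeq2 called 1 of them, Plod1 (-0.77, adjusted p = 0.0396). For these 3 genes the KO normoxia libraries all lay below the WT normoxia libraries, as held for 7.73% of all genes. The Plod1 value (adjusted p = 0.321, edgeR) was called without KO normoxia library 3 (-0.96, adjusted p = 0.0455). With monocyte and neutrophil markers as covariates it was -0.35 (adjusted p = 0.729). Neutrophil markers summed to 1320, 2660 and 4360 CPM in KO normoxia libraries 1 to 3 against 2700, 5460 and 5660 CPM in WT normoxia. Plod2 was 0.44 ± 0.30, Plod3 -0.18 ± 0.11 and P4ha2, at 1 to 5 reads per library in either group, 0.43 ± 1.30.

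The interaction (response of KO cells minus that of WT cells) asked whether the rise in hypoxia itself differed between genotypes. P4ha1 was the 1 gene of 6 that passed, at -1.19 ± 0.15 (95% interval -1.519 to -0.861, adjusted p = 0.00509, edgeR), against 0.314% of all genes tested that were called lower. The call held when each library was left out in turn (-1.30 to -1.07), and in the libraries without Y-linked reads the size was -1.20 with an adjusted p of 0.725. Plod2 had a difference of like size and a larger error (-1.10 ± 0.41, unadjusted p = 0.0217, adjusted p = 0.37). Plod3 was at -0.35 ± 0.15 (adjusted p = 0.442), P4hb at -0.16 ± 0.10 (adjusted p = 0.677), Plod1 at 0.39 ± 0.28 (adjusted p = 0.713) and P4ha2 at -0.78 ± 1.43 (95% interval -3.9 to 2.333, adjusted p = 0.909). Both P4ha1 and Plod2 passed the test of the hypoxia response in KO cells as well.

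Among the lysyl hydroxylase transcripts the share of Plod2 was higher and that of Plod3 lower in the hypoxia libraries of both genotypes, though no share passed an adjusted threshold. Of the summed CPM per kilobase of the 3 Plod genes, Plod2 took 32.8 ± 3.83% in KO hypoxia against 16.2 ± 5.18% in KO normoxia, and 35.1 ± 7.98% in WT hypoxia against 9.99 ± 1.82% in WT normoxia (SD, n = 3 each). Plod3 took 51.2 ± 4.39% in KO hypoxia against 67.4 ± 3.77% in KO normoxia, and 50.3 ± 6.60% in WT hypoxia against 65.8 ± 4.66% in WT normoxia. Neither share overlapped between hypoxia and normoxia (exact permutation p = 0.1, the smallest possible, adjusted 0.16). Plod1 took 16.0 ± 2.18% in KO hypoxia against 16.4 ± 1.86% in KO normoxia, with overlap (exact p = 0.9), and 14.5 ± 1.41% in WT hypoxia against 24.2 ± 3.69% in WT normoxia, without overlap (exact p = 0.1, adjusted 0.16). The Plod1 share of KO normoxia also lay below that of WT normoxia without overlap (exact p = 0.1, adjusted 0.16). Between KO and WT in hypoxia the shares of Plod2 (exact p = 0.8) and Plod3 (exact p = 0.9) overlapped, although the sum was lower in KO, at 13.2 ± 2.49 against 19.3 ± 2.06 CPM per kilobase (exact p = 0.1).

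**Figure D3:**
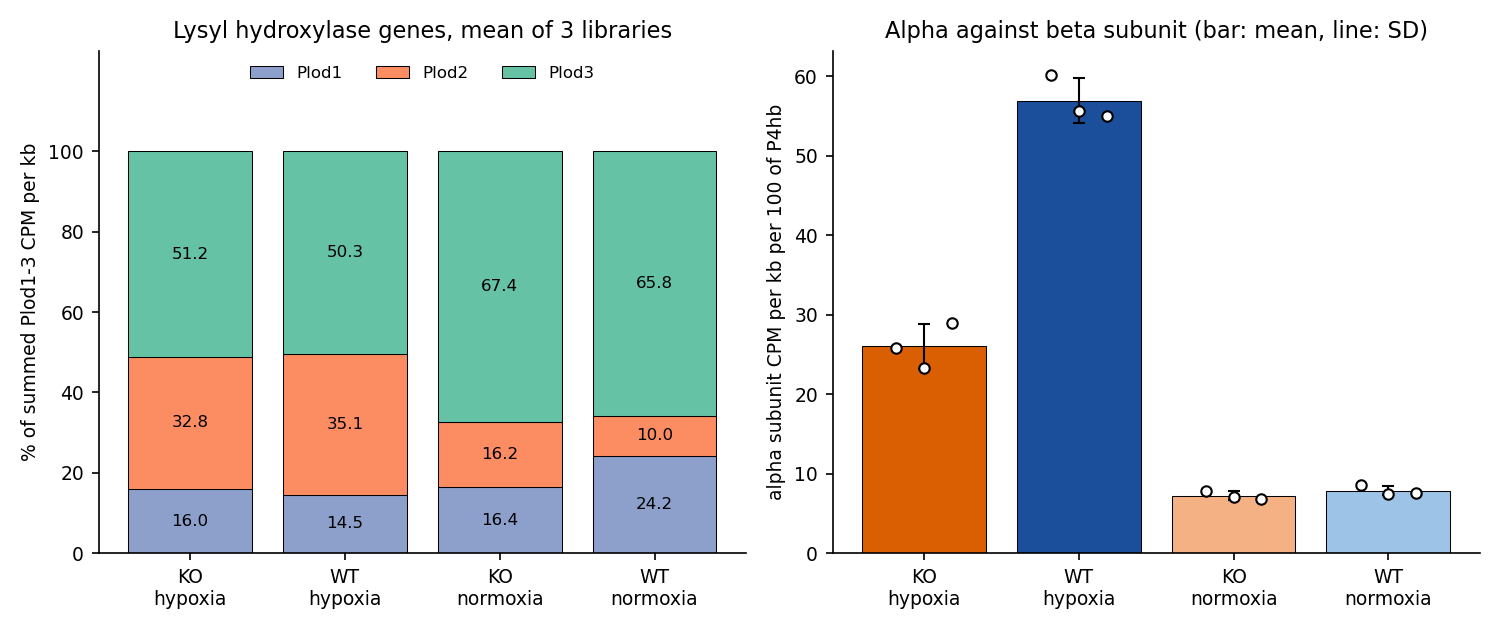
Left, share of Plod1, Plod2 and Plod3 in their summed CPM per kilobase of exon, as the mean of 3 libraries per group, with Plod2 at 32.8% in KO hypoxia, 35.1% in WT hypoxia, 16.2% in KO normoxia and 9.99% in WT normoxia. Right, alpha subunit CPM per kilobase per 100 of P4hb (bar, mean; line, SD; points, libraries), at 26.0 in KO hypoxia, 56.9 in WT hypoxia, 7.24 in KO normoxia and 7.88 in WT normoxia.

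Among 11482 genes with a mean of at least 1 CPM, the pattern of the 4 group means (centred log2 CPM, prior count 2) nearest to P4ha1 was that of Aldoa, a glycolytic aldolase, at a root mean square difference of 0.0938, followed by Vegfa, the vascular growth factor, at 0.126 and Prelid2 at 0.133. Nearest to Plod2 were Ndrg2 (0.147), Errfi1 (0.197) and Klhl30 (0.207), and nearest to P4ha2 were Egln3, a prolyl hydroxylase that acts on HIF-α (0.348), Dnm1 (0.422) and Aldoc (0.481). Genes that moved little lay close to many others, as with Prr13, Il9r and Rras for P4hb (0.0126 to 0.0164) and Kank3 and Pacs1 for Plod3 (0.0178 and 0.0205). Nearest to Plod1 was Ltf, the lactoferrin of neutrophil granules (0.0247), then Ccno and Pilrb2 (0.0394 and 0.0402). Ltf is one of the neutrophil markers whose sums are given with the Plod1 values above. Plod1 was also fitted with monocyte and neutrophil markers as covariates, with the normoxia result given there, and their part in its levels was not tested otherwise.

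The partners of the 6 enzymes did not move as one group. Over all genes of the related lists, the libraries without Y-linked reads kept 31 of 39 calls of the KO response, 9 of 38 of the WT response, 1 of 10 of KO against WT in hypoxia and 0 of 2 of the interaction. The WT calls kept there were those of Alkbh1, Alkbh5, Col11a2, Col27a1, Col5a3, Jmjd6, Phyh, Sparc and Tmx4. Of 14 listed prolyl 3-hydroxylases and other collagen-modifying proteins, 10 were tested, and in WT hypoxia 3 were called higher and 1 lower, where 11.4% of all genes were called higher and 16.3% lower (median 0.26 against 0.01 over all genes). P3h1, a prolyl 3-hydroxylase, rose by 0.90 ± 0.20 (adjusted p = 0.00443, edgeR), and Colgalt1, which adds galactose to hydroxylysine, fell by 0.34 ± 0.08 (adjusted p = 0.00418). Sparc, a collagen chaperone with 2.03 CPM in WT hypoxia against 0.577 CPM in WT normoxia, rose by 1.80 ± 0.45 (1.41 to 2.71 as each library was left out). Colgalt2 rose at a mean of only 0.403 CPM over all libraries, and its call was lost on leaving out any 1 of 3 libraries in KO and of 4 in WT. In KO cells 2 were called higher (Tmem38b and Colgalt2) and 2 lower, where 14.5% of all genes were called higher and 15.7% lower. The lower ones were P3h3 (-1.06 ± 0.24) and Serpinh1, a collagen chaperone (-0.48 ± 0.12, not called without KO hypoxia library 1). In hypoxia 1, P3h3, was lower in KO than in WT (-0.84 ± 0.24, adjusted p = 0.0449), a call that was lost on leaving out any 1 of 11 libraries.

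Of 13 cross-linking and propeptide enzymes 7 were tested, and Bmp1, which cleaves the C-propeptide, rose in KO (0.96 ± 0.19, adjusted p = 0.00168, edgeR) and in WT (0.84 ± 0.19, adjusted p = 0.00558). Adamts14 fell in KO by 1.08 ± 0.37, a call lost on leaving out any 1 of 5 libraries, and no lysyl oxidase gene was called. For these and the lists that follow, the shares of all genes called were 14.5% higher and 15.7% lower in KO, and 11.4% higher and 16.3% lower in WT, and no list was tested against them. Of 29 collagen chain genes 20 were tested, with 5 called higher and 4 lower in KO (median 0.50) and 4 higher and 2 lower in WT (median 0.78). The chain genes with the most reads fell: Col5a3, at a mean of 215 CPM, by 1.12 ± 0.15 in WT, and Col27a1, a fibrillar chain, to 50.1 ± 2.0 CPM in WT hypoxia against 116 ± 7.04 CPM in WT normoxia (-1.21 ± 0.10, adjusted p = 2.55e-06). Col11a2 rose by 1.01 ± 0.13 and Col7a1 by 0.85 ± 0.15. Col1a2 of type I collagen rose by 1.5 ± 0.45 (adjusted p = 0.0238) but held only 2.16 CPM in WT hypoxia against 0.756 CPM in WT normoxia, and that call was lost on leaving out any 1 of 4 libraries. Stromal and endothelial markers summed to 212 to 270 CPM in WT hypoxia against 266 to 352 CPM in WT normoxia. The lower sum lay in 2 of them, Kdr (-3.33 ± 0.38, adjusted p = 0.000166, edgeR) and Cdh5 (-0.67 ± 0.11, adjusted p = 0.000613), whereas 2 of the 10 tested were called higher and the median was 0.30. Pdgfrb, of pericytes and other mesenchymal cells, had 1.65, 1.44 and 2.44 CPM in WT hypoxia against 0.651, 0.466 and 0.528 CPM in WT normoxia (1.75 ± 0.38, adjusted p = 0.00361). The part of these markers in the chain genes was not tested. Of 23 other proteins with a collagen-like stretch 16 were tested, and 3 were called lower in each genotype, among them Emid1 (-0.53 ± 0.09) and Marco, a macrophage scavenger receptor (-2.81 ± 0.71, -3.32 to -1.96 as each library was left out, not called without WT hypoxia library 2 or 3 or in the libraries without Y-linked reads, at -1.23), in WT and Colq, the collagen tail of acetylcholinesterase, in KO (-1.51 ± 0.21).

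P4hb was set beside 21 tested protein disulfide isomerases and oxidases of 22 listed. In KO 5 of them were called higher and 6 lower (median 0.01), and in WT 5 higher and 8 lower (median -0.02). Several abundant isomerases fell in WT hypoxia while P4hb rose, such as Pdia3 (-0.52 ± 0.09, adjusted p = 0.00102, edgeR), Pdia6 (-0.51 ± 0.07, adjusted p = 0.000221) and Pdia4 (-0.40 ± 0.06, adjusted p = 0.000475). Ero1l, the oxidase that recharges P4hb, had 160 ± 27.6 CPM in WT hypoxia against 26.0 ± 6.31 CPM in WT normoxia (2.62 ± 0.22, adjusted p = 8.1e-06). It rose in KO by 1.72 ± 0.21 and was lower in KO hypoxia than in WT hypoxia by -1.03 ± 0.21 (adjusted p = 0.011), a call lost without WT hypoxia library 1 or KO hypoxia library 1, with the marker covariates (-0.68, adjusted p = 0.0946) and in the libraries without Y-linked reads (-0.93, adjusted p = 0.35). Mttp, which forms the lipid transfer complex with P4hb, was not called in any comparison (0.26 ± 0.22 in WT).

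Other 2-oxoglutarate oxygenases were mixed, with 3 of 29 called higher and 5 lower in KO and 5 higher and 5 lower in WT. Jmjd6, a lysyl hydroxylase of nuclear proteins, rose by 0.63 ± 0.12 in KO (adjusted p = 0.00133, edgeR) and by 1.61 ± 0.12 in WT (adjusted p = 9.51e-07). Alkbh5, an RNA demethylase, rose by 0.51 ± 0.09 in KO (adjusted p = 0.000918) and by 1.24 ± 0.09 in WT (adjusted p = 8.71e-07). Like P4ha1, both had a called interaction, Jmjd6 at -0.98 ± 0.16 (adjusted p = 0.021) and Alkbh5 at -0.73 ± 0.13 (adjusted p = 0.0234), although each of these calls was lost on leaving out any 1 of 7 libraries. Phyh, the phytanoyl-CoA hydroxylase of peroxisomes, fell in both genotypes (-1.62 ± 0.12 in KO, -1.13 ± 0.12 in WT). Of 5 tested genes listed under vitamin C uptake and synthesis, Slc23a3 was called higher in KO (1.26 ± 0.32) and in WT (1.22 ± 0.33). Its mean was 0.943 CPM, and the WT call was lost without WT hypoxia library 1. Gsto1 rose in KO (0.66 ± 0.14). Whether Slc23a3 or Gsto1 serves vitamin C uptake was not examined here. Slc23a2, a vitamin C transporter with 37.3 ± 3.74 CPM in WT hypoxia against 45.9 ± 9.20 CPM in WT normoxia, was not called (-0.30 ± 0.14, adjusted p = 0.126).

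**Figure D4:**
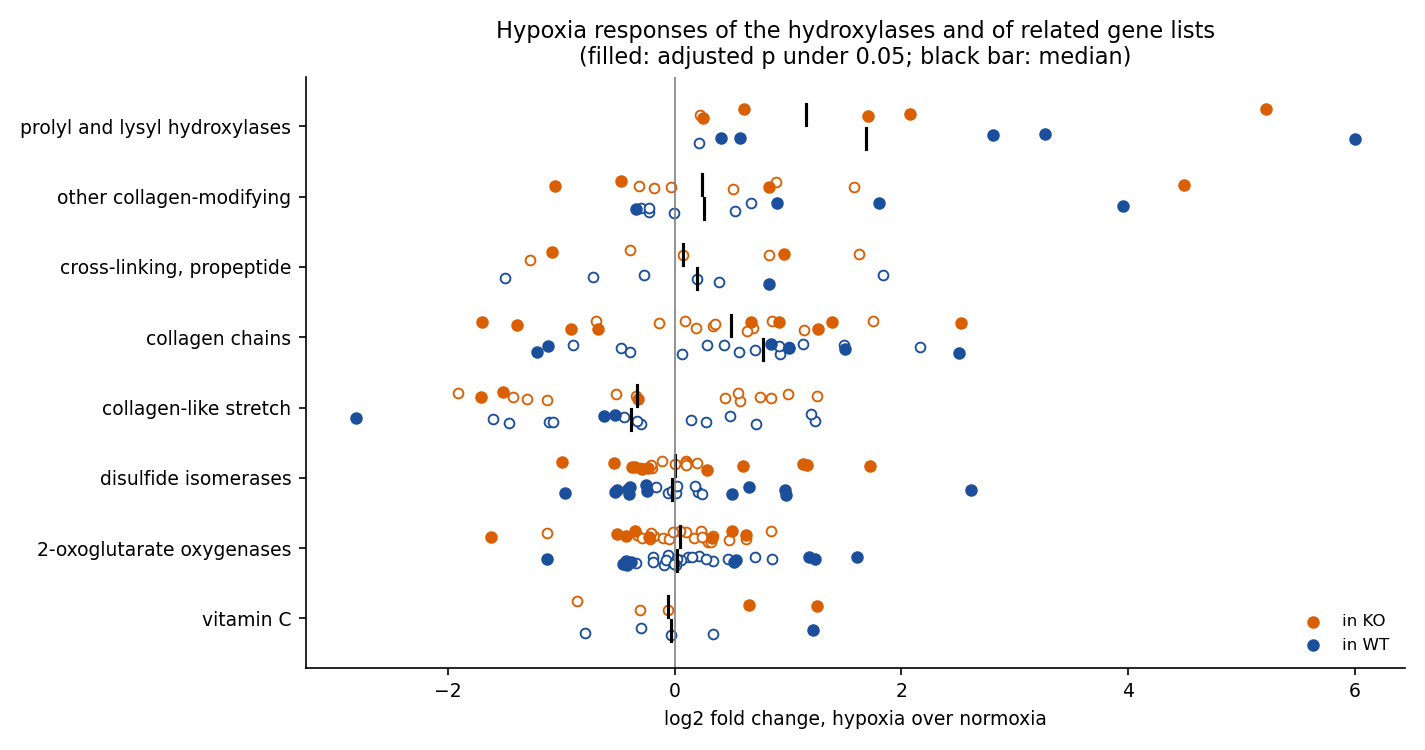
Hypoxia responses of the 6 hydroxylase genes and of the tested genes of 7 related lists, as log2 fold changes of hypoxia over normoxia in KO and in WT (filled, adjusted p under 0.05 in edgeR; open, not called; black bar, median of the row). The collagen chains spread to both sides of 0, with medians of 0.50 in KO and 0.78 in WT, and the disulfide isomerases and oxidases, with medians of 0.01 in KO and -0.02 in WT, also lie on both sides, from Qsox2 at -0.99 in KO and -0.97 in WT to Ero1l at 1.72 in KO and 2.62 in WT.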

How the data were processed

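RNA-seq read counts per gene were analysed for 12 libraries, 3 in each of 4 groups assigned by the labels. The values were deposited by the authors as raw counts, not normalized. The submitters' processing notes name CASAVA, Bowtie 0.12.2 and mm10, and libraries were made from total RNA with a TruSeq kit. Which program counted the reads, with which annotation and with what use of strand, is not given in the sources used here. Total counts of 27629175 to 36880082 set the precision. Intervals on low counts were exact (95%).

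Counts were fitted with edgeR 4.0.16 (R 4.3.3): TMM scaling, the default filter on low counts (17506 genes tested, 29477 not), robust quasi-likelihood F tests on 4 group means, and Benjamini-Hochberg adjustment over all genes tested with calls at 0.05. The SE of a log2 fold change was its size divided by the root of F. The script was tested on simulated data. CPM are TMM-scaled, and levels per kilobase use merged exons of GENCODE vM21 (mm10). Symbols were matched for 46488 of 46983 identifiers, and 1 of 236 list entries had no match. Ratios and shares within a library were compared by exact two-sided permutation tests, with 24 comparisons. Promoter sequences are from RefSeq (GRCm38.p6), with 250 of 300 bases searched on both strands.

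The members, the gene lists and the rule for named genes were chosen with earlier results of these data known. Named genes are the 6 members, Hif1a, Cd79a and P4ha3, and from each list up to 6 called genes with the smallest adjusted p in the WT response and up to 4 in each other comparison, or in a list with none called the 2 tested members with the highest mean count, of which the text gives a selection. Genes named outside this rule (Slc23a2, the overlapping genes and single markers) were chosen after their values were seen. The 3 nearest patterns per gene were taken by the root mean square difference, and 1 of them is not reported here.

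Same-numbered WT libraries of normoxia and hypoxia deviated together (r of 0.196, 0.36 and 0.434 across genes), so the numbers pair the WT samples on this evidence from the data. For KO they did not in every pair (0.182, -0.039 and 0.12). The main fit has no block. Alternatives were RLE scaling, size factors computed with immunoglobulin and mitochondrial genes left out, a filter of 1 CPM in 3 libraries or none, only the compared groups, the replicate block, DESeq2 1.42.0, covariates for Y-linked reads or for monocyte and neutrophil levels, only the libraries without Y-linked reads, and leaving out each library. The length of the longest transcript in place of merged exons was added after seeing the data.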

Additional observations from a re-analysis of the deposited data

Results flagged for a closer look

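The hypoxia response of P4ha1 differed between the genotypes by the interaction test, with KO minus WT at -1.19 on the log2 scale. P4ha1 rose in all 3 KO hypoxia libraries (75.9 to 103.3 CPM) and in all 3 WT hypoxia libraries (232.6 to 270.8 CPM), so the genotypes differed in the size of the rise and not in its direction. Groups of 3 libraries are too small for a test of single outlying libraries.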

How the results depend on the processing

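Of 653 values of the 6 genes under alternatives, 619 kept direction and side of the threshold, 23 lost the call, 4 gained it and 7 changed sign. The sign changes were those of P4ha2 in hypoxia, KO against WT (0.73 with the marker covariates, 0.68 without Y-linked libraries, 0.01 and 0.10 without 1 library), of P4ha2 in normoxia (-0.41) and in the interaction (0.08) without KO normoxia library 3, and of Plod3 in normoxia with the marker covariates (0.03). The cause was not tested.

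Without libraries that carry Y-linked reads, WT calls were lost for P4ha2 (6.24), P4hb (0.46) and Plod3 (0.60), leaving 2 members and 1070 genes. In hypoxia, KO against WT, P4hb (-0.31) and Plod3 (-0.52) were lost, leaving 1 member and 30 genes, and the interaction of P4ha1 (-1.20) was lost, leaving 0 members and 1 gene. Fewer samples enter these fits. With monocyte and neutrophil covariates, P4hb in KO (0.24), and P4hb (-0.29) and Plod3 (-0.37) in hypoxia were lost, leaving 1 member and 409 genes there, with 1 gene in normoxia and 47 in the interaction. In KO, P4hb was lost without the filter (0.21), and Plod1 with only the compared groups (0.60), with the Y covariate (0.57) and without Y-linked libraries (0.60).

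The replicate block called Plod3 in KO (0.23) and gave 188 interaction genes against 73; it changed no other call of the 6 genes. Without the filter 194 genes had an interaction and 40 differed in normoxia; DESeq2 gave 295 and 94, with Plod1 (-0.77) the 1 member called in normoxia, and only the compared groups gave 0 in normoxia.

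Leaving out 1 library gave, for the WT response, 3.19 to 3.31 (P4ha1), 5.60 to 6.36 (P4ha2), 0.37 to 0.45 (P4hb), 0.11 to 0.42 (Plod1), 2.48 to 2.96 (Plod2), 0.55 to 0.59 (Plod3), 5 members throughout and 3561 to 5085 genes. For the KO response these were 1.96 to 2.19, 4.28 to 6.07, 0.21 to 0.30, 0.44 to 0.82, 1.44 to 1.86 and 0.14 to 0.35, with 3 to 6 members and 3770 to 6083 genes. For KO against WT in hypoxia they were -1.62 to -1.39, -1.28 to 0.10, -0.39 to -0.30, -0.57 to -0.19, -0.91 to -0.32 and -0.59 to -0.46, with 1 to 3 members and 672 to 2654 genes. In normoxia they were -0.37 to -0.27, -0.41 to 0.90, -0.24 to -0.15, -0.96 to -0.58, 0.26 to 0.62 and -0.30 to -0.08, with 0 to 1 members and 3 to 294 genes, and in the interaction -1.30 to -1.07, -1.70 to 0.08, -0.19 to -0.10, 0.19 to 0.61, -1.35 to -0.76 and -0.42 to -0.21, with 1 member and 18 to 224 genes.

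Of 2014 values for 92 results of related genes, all of them called in the main fit, 243 lost the call and 0 changed sign. Uncalled results of related genes were not followed, so the 0 does not speak for them. Depth limited P4ha2 and P4ha3, with 1 to 5 and 1 to 9 reads per normoxia library.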

Other observations

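All 6 genes had their highest KO hypoxia value in library 3, whereas of the 2540 genes raised in KO hypoxia 33.2% were highest in library 3, 36.5% in library 2 and 30.3% in library 1. In WT hypoxia, library 1 was highest for 4 of the 6 genes (P4ha1, P4ha2, P4hb and Plod2) and library 2 for Plod1 and Plod3, and of the 2003 genes raised there 39.8% were highest in library 1. These are descriptions of single libraries, chosen after the values were seen.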
